A study of Homo sapiens with 6 samples.

Results

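Negative feedback on the MAPK (mitogen-activated protein kinase) pathway was followed through 10 genes, DUSP4, DUSP5, DUSP6, SPRY1, SPRY2, SPRY4, SPRED1, SPRED2, ETV4 and ETV5, of the 17579 genes in the deposited gene table. They were chosen by symbol as feedback inhibitors and transcriptional readouts of the pathway that the receptor tyrosine kinase FGFR3 feeds, and all 10 were in the table and passed the filter on low counts, which kept 13138 genes. RNA-seq was made from LP-1, a cell line of human multiple myeloma in which a t(4;14) translocation puts NSD2 and FGFR3 under control of an immunoglobulin locus. One group of 3 libraries came from LP-1 cells infected with virus carrying a guide RNA against AURKA, which encodes Aurora A, a kinase of mitosis, and the other 3 from LP-1 cells given virus with a non-targeting guide. Both groups were grown with 10% serum, and the labels give neither the time of harvest nor whether the cells were a clone or a pool. Nothing in the labels says that replicates were separate cultures, so the p-values cover no more than the spread among these libraries, possibly a technical one.

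When FGFR3 binds a fibroblast growth factor it phosphorylates the adaptor FRS2, which recruits GRB2 and SOS, and RAS, RAF, MEK and ERK are activated in turn. ERK activity induces genes that restrain the same pathway. Dual-specificity phosphatases (DUSP) remove phosphate from MAP kinases, Sprouty (SPRY) and SPRED proteins act on the steps around RAS and RAF, and the PEA3 factors ETV4 and ETV5 are transcribed when ERK lifts repression by CIC. RNA of these genes is widely read as a measure of pathway output, and t(4;14) myeloma is a setting in which FGFR3 is made by cells that otherwise lack it.

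Promoter sequences are shown for SPRY1 and SPRED1, whose libraries did not overlap between groups, and for DUSP6, a classical ERK target. RefSeq windows on GRCh38.p14, running from 250 bases before to 50 bases after an annotated start, were at hand for 6 of the 10 genes: SPRY1, SPRY2, SPRY4, SPRED1, SPRED2 and DUSP6. That build differs from hg19, which the submitters' processing notes name, so the windows locate the annotated starts and not reads. The windows are chr4:123396545-123396844 on the plus strand for the upstream SPRY1 start, chr4:123398136-123398435 on the plus strand for the downstream SPRY1 start, chr12:89352452-89352751 on the minus strand for DUSP6 and chr15:38252586-38252885 on the plus strand for SPRED1. Capitals mark the ETS core CGGAAG on either strand, and in DUSP6 it lies on the opposite strand.
SPRY1 upstream start: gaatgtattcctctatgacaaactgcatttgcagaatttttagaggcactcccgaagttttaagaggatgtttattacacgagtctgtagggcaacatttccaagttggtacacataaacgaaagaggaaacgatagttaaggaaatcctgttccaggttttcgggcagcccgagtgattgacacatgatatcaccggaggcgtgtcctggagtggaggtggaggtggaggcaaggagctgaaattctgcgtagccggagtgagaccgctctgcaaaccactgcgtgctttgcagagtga
SPRY1 downstream start: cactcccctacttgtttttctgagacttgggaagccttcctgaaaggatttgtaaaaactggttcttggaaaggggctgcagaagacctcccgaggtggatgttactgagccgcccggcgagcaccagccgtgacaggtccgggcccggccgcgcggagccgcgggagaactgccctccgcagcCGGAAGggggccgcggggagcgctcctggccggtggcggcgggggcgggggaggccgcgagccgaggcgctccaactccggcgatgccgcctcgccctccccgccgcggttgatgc
DUSP6: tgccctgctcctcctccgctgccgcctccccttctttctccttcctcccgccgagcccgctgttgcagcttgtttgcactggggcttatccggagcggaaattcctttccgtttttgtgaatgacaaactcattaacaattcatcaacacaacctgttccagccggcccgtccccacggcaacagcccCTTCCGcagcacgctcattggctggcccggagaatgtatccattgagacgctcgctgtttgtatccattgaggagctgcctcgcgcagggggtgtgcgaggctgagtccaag
SPRED1: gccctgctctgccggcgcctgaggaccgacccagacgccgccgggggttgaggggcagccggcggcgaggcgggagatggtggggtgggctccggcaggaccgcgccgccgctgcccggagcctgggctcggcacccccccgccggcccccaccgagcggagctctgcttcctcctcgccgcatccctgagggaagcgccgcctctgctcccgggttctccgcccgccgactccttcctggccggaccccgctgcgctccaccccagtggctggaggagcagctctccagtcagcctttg
The ETS core began 66 bases before the downstream SPRY1 start and 62 bases before the DUSP6 start, and neither the upstream SPRY1 window nor the SPRED1 window held it. Over the 10 windows of the 6 genes the ETS core was in 3, against 19.5% of 35116 human promoter windows of the same length. The AP-1 site TGANTCA was in 1 window, a SPRED2 one, against 7.71% of all windows. The CIC octamer TGAATGAA and the cyclic AMP response palindrome TGACGTCA, each sought on both strands, were in 0 of the 10, against 1.66% and 1.85% of all windows. None of the 4 motifs contains another, and a match only describes the letters.

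Total expected counts (reads that RSEM divides among genes) were 17724174 to 18523594 per library, and a gene at 1 CPM, the count scaled to library size, had about 18 reads. Libraries of 1 group differed by more than counting noise, so no library was a copy of another; control replicates 2 and 3 stood furthest apart, with a chi-square of 11.1 per gene, against 2.30 to 2.74 between AURKA-guide replicates. AURKA had 2062, 2191 and 2079 expected counts in AURKA-guide replicates 1, 2 and 3, against 3498, 3364 and 3627 in control replicates 1, 2 and 3, a log2 fold change of -0.74 (SE 0.0488, edgeR quasi-likelihood adjusted p = 1.55e-06). Because a cut gene can still be transcribed, this RNA level is no measure of Aurora A protein. Of 9 plasma cell markers all passed the filter, and they summed to 8628 to 8845 CPM in AURKA-guide libraries and 8469 to 9322 CPM in control libraries, a sum led by JCHAIN and XBP1. Of the 9, the ectoenzyme CD38 rose (log2 fold change 0.38, SE 0.0456, adjusted p = 4.16e-04) and 0 fell, beside 2.03% of all tested genes called in either direction. At an unadjusted p below 0.05 there were 4, with IRF4 at -0.12, MZB1 at -0.14 and TNFRSF17 at -0.12 beside CD38. The share of all tested genes at that unadjusted p was 16.1%. Summed markers of T and NK cells were at 9.38 to 10.1 CPM in AURKA-guide and 7.29 to 11.9 CPM in control libraries, and those of myeloid cells at 5.16 to 5.87 CPM in AURKA-guide and 5.35 to 6.12 CPM in control libraries. Stromal markers summed to 5.25 to 6.05 CPM in AURKA-guide and 4.78 to 5.91 CPM in control libraries, and epithelial markers to 3.72 to 4.40 CPM in AURKA-guide and 3.96 to 5.16 CPM in control libraries. The T and NK sum was led by KLRD1, with a mean of 8.73 CPM over all libraries, and the stromal sum by ACTA2, with 5.03 CPM. Each was the only marker of its list that passed the filter. Red cell markers summed to 0.222 to 0.386 CPM in AURKA-guide and 0.162 to 0.464 CPM in control libraries. The groups overlapped in each of these 6 sums. In bulk RNA, fewer cells making a transcript and less of it per cell cannot be told apart.

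Of the 10 feedback genes, ETV5 alone rose past the threshold in the AURKA-guide libraries (edgeR quasi-likelihood test, Benjamini-Hochberg adjusted p below 0.05 over all genes), and 0 fell. Among all tested genes 2.03% were called, 0.959% higher and 1.07% lower in AURKA-guide libraries. Fold changes were above 0 for 8 of the 10, as for 50.0% of all tested genes, and their median was 0.22 on the log2 scale, against -0.0001 over all tested genes. The SPRY and DUSP members and SPRED1 all had log2 fold changes above 0, but none of them passed the threshold. The 2 members below 0 were SPRED2 and ETV4. At an unadjusted p below 0.05 there were 3 members, ETV5, SPRED1 and SPRY1, beside 16.1% of all tested genes. The same 3 were the members whose AURKA-guide libraries all lay above all control libraries, as did 10.5% of all tested genes; 0 members lay wholly below, as 10.3% of tested genes did. The count of called members was 0 with the DESeq2 Wald test, which called 1.8% of all genes, and 2 (ETV5 and SPRED1) without control replicate 3, when 15.3% of all genes were called. It was 1 (ETV5) with an offset for GC content, when 6.52% of all genes were called. It was also 1 without control replicate 2, and 0 without control replicate 1 or any single AURKA-guide replicate. In those fits with 0, the ETV5 log2 fold change was 0.51 to 0.61. It was 0.31 with limma on log2(FPKM + 1), which also called 0 members. Calls over all genes also changed with the library left out, as given in the last section.

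**Figure D1:**
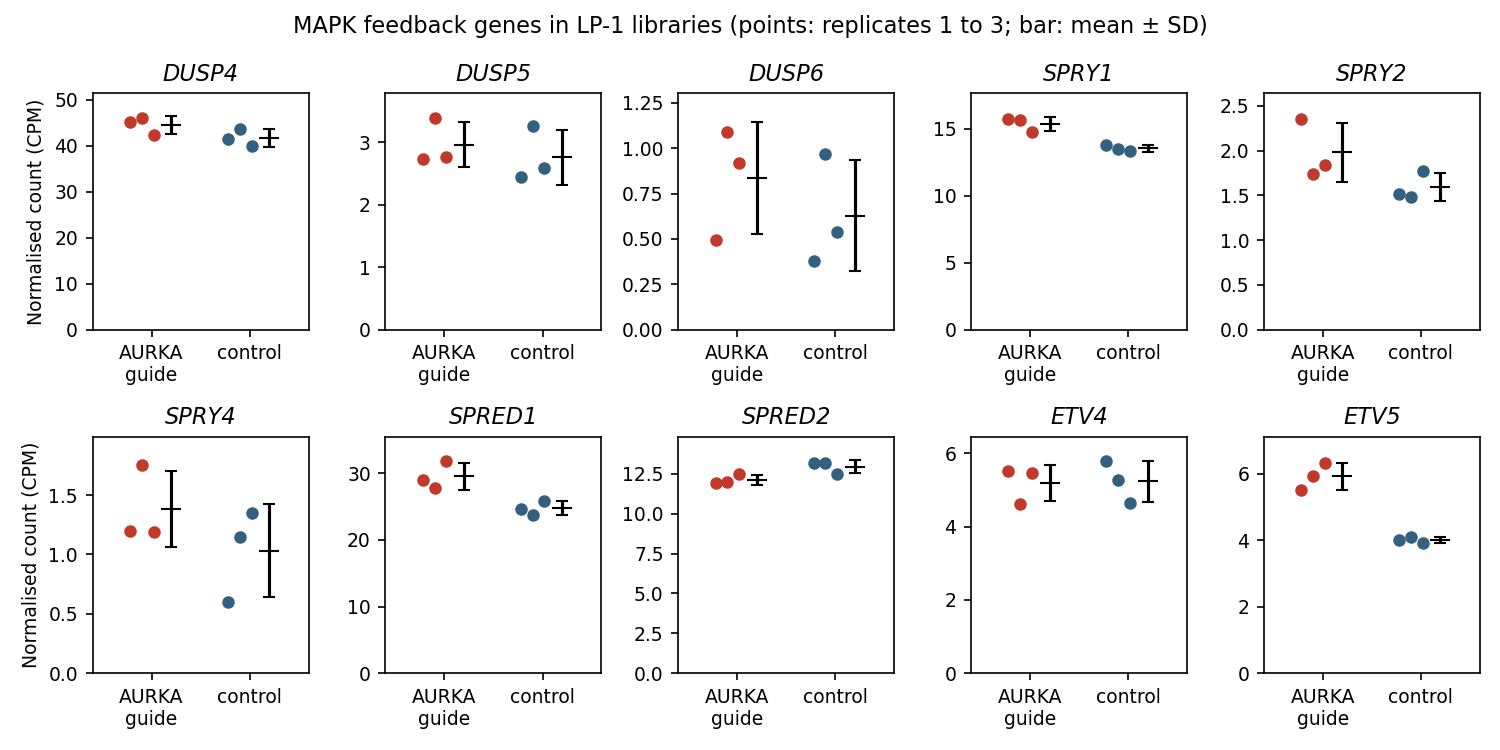
Normalised counts (CPM on the scaled library size, axes from 0) of the 10 feedback genes in 3 AURKA-guide libraries (red) and 3 control libraries (blue); points are replicates 1 to 3 and the bar is the mean ± SD. The groups are separate for SPRY1, SPRED1 and ETV5 and overlap for the other 7 genes.

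**Figure D2:**
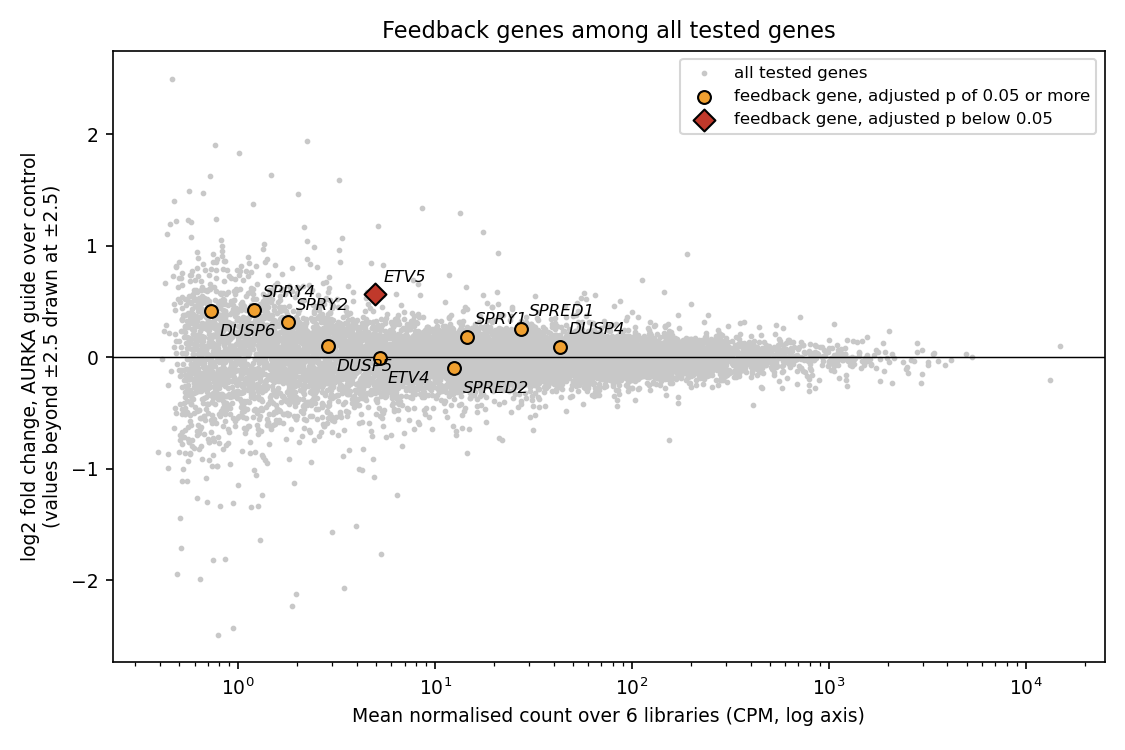
log2 fold change (AURKA guide over control) against the mean CPM of 6 libraries (log axis) for 13138 tested genes in grey, with the 10 feedback genes outlined. ETV5, the red diamond at 0.57, is the member past the threshold; the members with the lowest counts, DUSP6 and SPRY4, have log2 fold changes of 0.42 and 0.43 within the wide cloud of low-count genes.

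Levels between genes were compared per length, on the authors' FPKM scale. DUSP4, the nuclear phosphatase, was the most abundant member at 7.81 ± 0.284 FPKM in AURKA-guide and 7.29 ± 0.255 FPKM in control libraries (SD, n = 3 each, here and for all FPKM and CPM means below). SPRY1 followed at 5.44 ± 0.232 FPKM in AURKA-guide and 4.52 ± 0.191 FPKM in control libraries. SPRED1, SPRED2 and ETV4 came next, between 2.30 and 3.74 FPKM on average in either group, and SPRED1 and SPRED2 overlapped in control but not in AURKA-guide libraries. ETV5 and DUSP5 were neighbours with overlapping libraries in both groups. SPRY2 was at 0.880 ± 0.123 FPKM in AURKA-guide and 0.693 ± 0.0929 FPKM in control libraries. SPRY4 and DUSP6 were lowest and did not differ from each other beyond their spread, with 0.260 and 0.257 FPKM on average in AURKA-guide and 0.183 FPKM each in control libraries. For scale, FPKM of FGFR3 was 18.7 times that of DUSP4 in AURKA-guide libraries and 23.6 times in control libraries.

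ETV5 (gene ID 2119, chromosome 3) encodes a PEA3-group ETS transcription factor. Its expected counts were 101, 109 and 117 in AURKA-guide replicates 1, 2 and 3, against 74, 72 and 73 in control replicates 1, 2 and 3, or 5.94 ± 0.409 CPM in AURKA-guide against 4.01 ± 0.0967 CPM in control libraries. Every AURKA-guide library lay above every control library, and the control libraries were close together. The fold change was 1.48, or 0.57 on the log2 scale (SE 0.126, 95% interval 0.32 to 0.81, adjusted p = 0.0298), and ETV5 ranked 201 of 13138 genes by p. The log2 fold change kept its direction and lay between 0.51 and 0.61 when any 1 library was left out. The call was lost without AURKA-guide replicate 1 (adjusted p = 0.0547), 2 (0.134) or 3 (0.190) and without control replicate 1 (0.136), and it held without control replicate 2 (0.0459) or 3 (0.0177). It was also lost with the DESeq2 Wald test (0.56, adjusted p = 0.166) and with limma on log2(FPKM + 1) (0.31, adjusted p = 0.0643) or log2(FPKM + 0.1) (0.52, adjusted p = 0.0732); over the alternatives run the adjusted p was 0.0084 to 0.190.

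ETV4 (gene ID 2118, chromosome 17), the close relative of ETV5, showed no such difference. Its expected counts were 101, 85 and 101 in AURKA-guide libraries, against 107, 92.5 and 86.8 in control libraries, and the groups overlapped. The means were 5.199 ± 0.491 CPM in AURKA-guide and 5.24 ± 0.564 CPM in control libraries. The log2 fold change was -0.0071 (SE 0.134, 95% interval -0.27 to 0.25, adjusted p = 0.985). CIC, the repressor of both genes, named after its values were seen, was at 90.5 ± 8.03 CPM in AURKA-guide and 97.7 ± 12.4 CPM in control libraries (-0.11, SE 0.0842, adjusted p = 0.546). The CIC value turned to 0.0147 with an offset for GC content, and without control replicate 3 it was -0.21 (adjusted p = 0.0292).

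Sprouty proteins are induced by growth factor signalling and restrain it. SPRY1 (gene ID 10252) had 287, 287 and 272 expected counts in AURKA-guide libraries, against 255, 236 and 248 in control libraries. All AURKA-guide libraries lay above all control libraries, with 15.4 ± 0.536 CPM in AURKA-guide against 13.5 ± 0.237 CPM in control libraries. The difference was small and missed the threshold (log2 fold change 0.18, SE 0.0787, 95% interval 0.03 to 0.34, adjusted p = 0.270). SPRY2 (gene ID 10253) had 43, 32 and 34 expected counts in AURKA-guide libraries, against 28, 26 and 33 in control libraries, and the lowest AURKA-guide library lay below the highest control library. Its log2 fold change was 0.31 (SE 0.213, 95% interval -0.10 to 0.73, adjusted p = 0.490). SPRY4 (gene ID 81848) had 21.9, 32.1 and 22 expected counts in AURKA-guide libraries, against 11.04, 20.1 and 25.2 in control libraries. Control replicate 1 was the low library, control replicate 3 lay above AURKA-guide replicates 1 and 3, and the log2 fold change of 0.43 had an SE of 0.301 (95% interval -0.16 to 1.01, adjusted p = 0.507). Leaving out 1 library gave 0.15 to 0.67 for SPRY4 and 0.17 to 0.40 for SPRY2.

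SPRED proteins bind the RAS inhibitor NF1 and bring it to the membrane. SPRED1 (gene ID 161742) had 531, 511 and 587 expected counts in AURKA-guide libraries, against 457, 416 and 482 in control libraries. The groups were separate, with 29.6 ± 2.03 CPM in AURKA-guide against 24.8 ± 1.06 CPM in control libraries, a fold of 1.19. The log2 fold change was 0.25 (SE 0.0727, 95% interval 0.11 to 0.40) and missed the threshold at an adjusted p of 0.101. Without control replicate 3 it was 0.28 and past the threshold (adjusted p = 0.0158); over all alternatives the adjusted p was 0.0158 to 0.471. The SPRED1 transcript has a low GC content, 38.9% against a median of 48.5% for all tested genes, and with an offset for GC content the log2 fold change was 0.19 (adjusted p = 0.0595). SPRED2 (gene ID 200734) had 218, 220 and 230 expected counts in AURKA-guide libraries, against 244, 231 and 232 in control libraries. AURKA-guide replicate 3 and control replicate 3 were level in CPM, so the groups touched (log2 fold change -0.09, SE 0.0826, 95% interval -0.26 to 0.07, adjusted p = 0.602). The difference between the SPRED1 and SPRED2 fold changes was not tested.

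None of the 3 phosphatases passed the threshold. DUSP4 (gene ID 1846) had 825, 844 and 783 expected counts in AURKA-guide libraries, against 769, 765 and 743 in control libraries. With 44.5 ± 1.86 CPM in AURKA-guide against 41.7 ± 1.89 CPM in control libraries the groups overlapped, and the log2 fold change was 0.09 (SE 0.0631, 95% interval -0.03 to 0.22, adjusted p = 0.486). DUSP5 (gene ID 1847), a nuclear phosphatase specific for ERK, had 50, 62 and 51 expected counts in AURKA-guide libraries, against 45, 57 and 48 in control libraries, with overlapping groups and a log2 fold change of 0.11 (SE 0.180, 95% interval -0.25 to 0.46, adjusted p = 0.810). DUSP6 (gene ID 1848), the cytoplasmic ERK phosphatase, was the rarest member. It had 9, 20 and 17 expected counts in AURKA-guide libraries, against 7, 17 and 10 in control libraries, and replicate 2 was the highest library of both groups. The log2 fold change of 0.42 (SE 0.389, 95% interval -0.34 to 1.18, adjusted p = 0.627) was not distinguishable from 0 at this depth, and it was 0.15 without control replicate 1 and 0.86 without control replicate 2. The DUSP5 value was 0.0001 without AURKA-guide replicate 2 and 0.24 without control replicate 2.

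**Figure D3:**
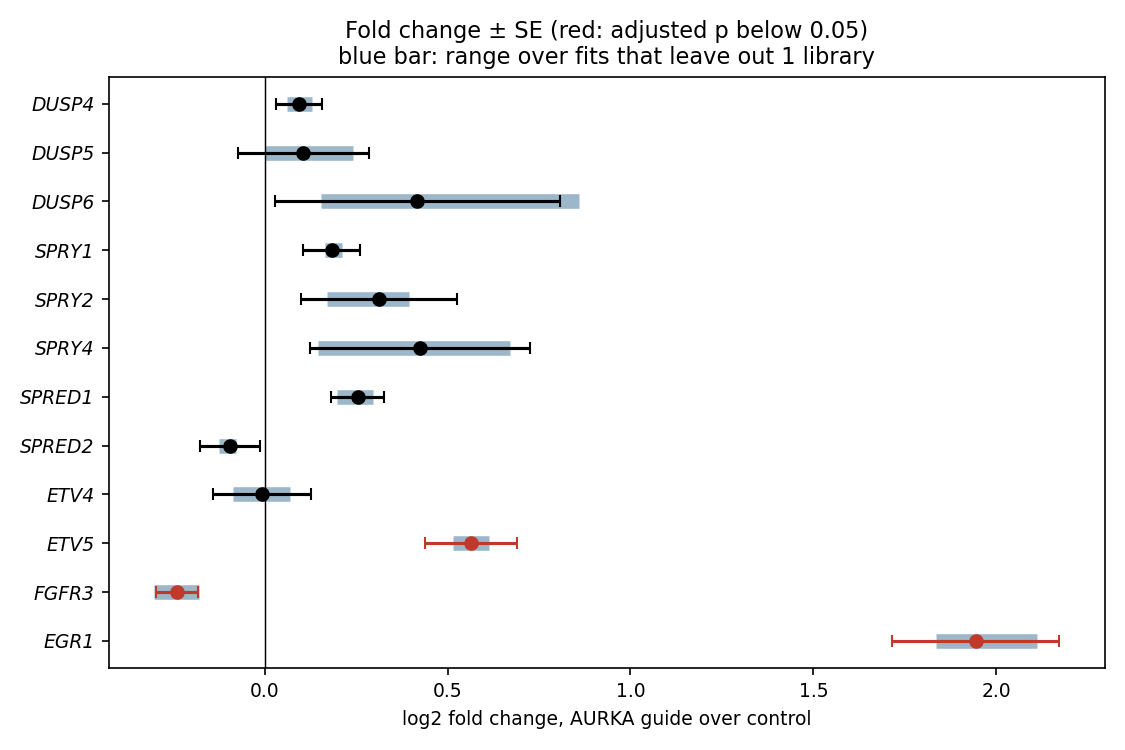
log2 fold change (AURKA guide over control) ± SE of the 10 feedback genes, FGFR3 and EGR1, red where the adjusted p is below 0.05; the blue bar spans the fits that leave out 1 library. The bars of the DUSP and SPRY members, SPRED1, ETV5 and EGR1 stay above 0, though that of DUSP5 reaches down to 0.0001. Those of SPRED2 and FGFR3 stay below 0, and that of ETV4 spans 0.

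FGFR3 (gene ID 2261) RNA itself was lower in the AURKA-guide libraries. It had 12102, 11370 and 11373 expected counts in AURKA-guide libraries, against 13885, 14100 and 12752 in control libraries. All AURKA-guide libraries lay below all control libraries, with 633 ± 25.4 CPM in AURKA-guide against 747 ± 60.4 CPM in control libraries (log2 fold change -0.24, SE 0.0566, adjusted p = 0.0424). With an offset for GC content, which is 62.0% for FGFR3, the fall was smaller at -0.14 (adjusted p = 0.00212). The call was lost without control replicate 2 (-0.18, adjusted p = 0.0809), control replicate 1 (0.209) or AURKA-guide replicate 1 (0.0633), 2 (0.232) or 3 (0.269), and kept without control replicate 3 (-0.30, adjusted p = 3.23e-04). It was also lost with DESeq2 size factors (adjusted p = 0.0505), at a mean of at least 10 CPM (0.0517) and with limma on log2(FPKM + 1) (0.0801) or log2(FPKM + 0.1) (0.0840). The FGFR3 call held with the DESeq2 Wald test (adjusted p = 0.00733) and with a block for the replicate number, alone (0.0113) or with the GC offset (0.0012). It also held with no filter (0.0315) and with scaling by library size alone (0.0327). NSD2, the other gene of the translocation, was at 369.6 ± 7.15 CPM in AURKA-guide and 376 ± 7.62 CPM in control libraries (-0.02, SE 0.0440, adjusted p = 0.822). ETV5 and FGFR3 were called in opposite directions.

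In the lists of other pathway genes the calls were FGFR3, EGR1 and, listed again, ETV5, beside 2.03% of all tested genes called in either direction. Of 13 FGF receptors and co-receptors 10 were tested, with FGFR3 lower, 0 higher and a median log2 fold change of -0.06. FGFR2 was at 24.1 ± 0.487 CPM in AURKA-guide and 23.5 ± 0.723 CPM in control libraries, and FGFR4 at 11.6 ± 0.951 CPM in AURKA-guide and 12.3 ± 1.075 CPM in control libraries; both were named after their values were seen. Of 22 FGF ligands 8 were tested and 0 called, with a median of -0.17; FGF13 was at -0.07 and FGF9 at 0.01. Of 15 adaptors and exchange factors all were tested and 0 called, with a median of 0.01. The exchange factor RASGRP1 was at 0.26 (SE 0.0959, adjusted p = 0.200) and the FGF receptor adaptor FRS2 at 0.21 (SE 0.0808, adjusted p = 0.217). With an offset for GC content RASGRP1 was at 0.22 and FRS2 at 0.14.

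All 18 genes of the RAS, RAF, MEK, ERK and RSK core were tested and 0 were called, with a median of -0.08. The RAS relative MRAS was at -0.50 (SE 0.127, adjusted p = 0.0610), and it passed with the GC offset (-0.50, adjusted p = 0.0164) and without control replicate 3 (-0.51, adjusted p = 0.0229). The ERK substrate kinase RPS6KA3 was at 0.18 (SE 0.0592, adjusted p = 0.155), and at 0.12 with the GC offset. Among 11 RAS inhibitors 0 were called, with a median of -0.01. NF1, the partner of the SPRED proteins, was at 0.18 (SE 0.0614, adjusted p = 0.173), and at 0.13 with the GC offset.

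The other MAP kinase phosphatases were measured beside DUSP4, DUSP5 and DUSP6. Of 7 genes 5 were tested and 0 were called, with a median of -0.11. Of those tested 0 had a fold change above 0, against 50.0% of all tested genes. DUSP7 was at -0.14 (SE 0.0619, adjusted p = 0.276) and DUSP1, an immediate early phosphatase, at -0.11 (SE 0.0714, adjusted p = 0.463). With an offset for GC content DUSP7 was at -0.0688 and DUSP1 at -0.0744. Of 4 other feedback inhibitors, all tested and each below 5 CPM on average, 0 were called with a median of 0.003; among them SPRED3, named after its values were seen, was at -0.53 (SE 0.227, adjusted p = 0.271).

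Among 18 other genes of ERK output 10 were tested, 1 was higher and 0 lower, with a median of 0.13. The called gene was EGR1, an immediate early zinc finger factor, with 74, 49 and 72 expected counts in AURKA-guide libraries, against 16, 17 and 17 in control libraries. Each AURKA-guide library lay far above the control libraries, a 3.85-fold rise (log2 fold change 1.94, SE 0.229, adjusted p = 3.67e-04), and EGR1 was called in every alternative that tested it. FOS, ETV1 and MYC, named after their values were seen, were at 0.17 (SE 0.0753, adjusted p = 0.288), 0.39 (SE 0.180, adjusted p = 0.297) and -0.04 (SE 0.0485, adjusted p = 0.746). Of 16 CIC and ETS factors, all tested, ETV5 was the only call, with a median of 0.05.

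**Figure D4:**
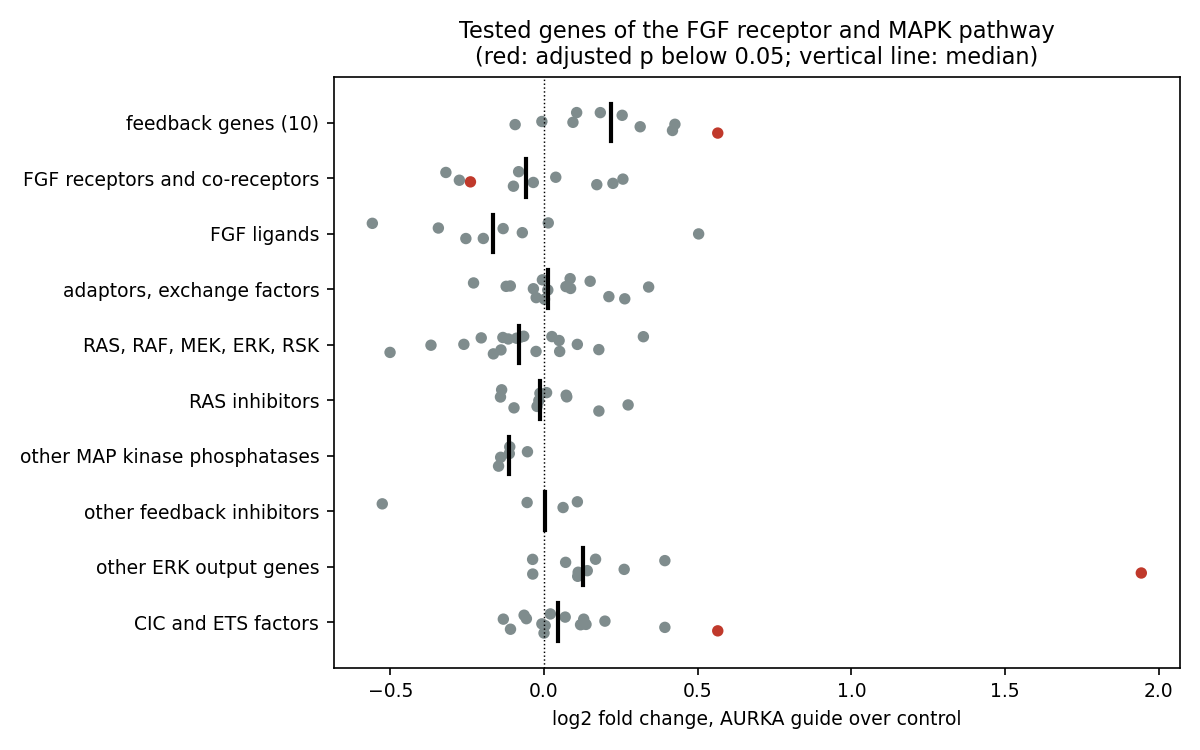
log2 fold change (AURKA guide over control) of every tested gene in the 10 lists, red where the adjusted p is below 0.05, with a vertical line at each list's median. The median of the feedback genes is 0.22, those of the other lists lie between -0.17 and 0.13, and the red points are ETV5 (in 2 lists), FGFR3 and EGR1.

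Over the 6 libraries the pattern of ETV5 was most like that of LCP1, ADORA2A and ZNF704, out of 10249 genes that averaged 5 CPM or more. Pearson correlations of log2(CPM + 0.1) were 0.996 for LCP1, 0.995 for ADORA2A and 0.994 for ZNF704, and all of them share the libraries and the group difference. LCP1, an actin-bundling protein of blood cells, had a log2 fold change of 0.33 (SE 0.0678, adjusted p = 0.0168), a call lost without control replicate 1 (0.115) or AURKA-guide replicate 1 (0.0501), 2 (0.0978) or 3 (0.123). ADORA2A, an adenosine receptor, was at 0.37 (SE 0.0990, adjusted p = 0.0770) and ZNF704 at 0.27 (SE 0.0938, adjusted p = 0.172).

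The transcript table held 34 transcripts of the 10 genes, of which 20 carried at least 10% of their gene's counts and 17 could be tested. By edgeR 0 of them were called, beside 1 of 43979 transcripts (0.00227%), and by DESeq2 0 were called, beside 1.39% of all transcripts. At an unadjusted p below 0.05 there were 0 by either test, and the share of all transcripts at that unadjusted p was not counted. ETV5 and DUSP5 have a single listed transcript each, so their gene values are those of NM_004454.2 and NM_004419.3. The ETV5 transcript gave the same counts as the gene and a log2 fold change of 0.56, with a wider error in the fit over transcripts (SE 0.278, adjusted p = 1.0). DUSP4 was 98.4% NM_001394.6, SPRED2 94.4% NM_181784.2 and SPRED1 68.3% XM_005254202.3.

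SPRY1 counts were spread over 5 transcripts, of which XM_005262686.1 held 52.8%, 47.2% and 50.6% in AURKA-guide libraries, against 60.9%, 80.8% and 65.4% in control libraries. That share was lower in every AURKA-guide library than in any control library. For SPRY2, NM_005842.3 held 82.1%, 60.2% and 81.7% in AURKA-guide libraries, against 90.1%, 89.8% and 84.8% in control libraries. For ETV4, XM_017024349.1 held 44.4%, 32.4% and 37.2% in AURKA-guide libraries, against 7.80%, 30.8% and 19.3% in control libraries. These were the 3 shares without overlap among 18 compared, beside 9.1% of 24901 such shares over all tested genes. Each had a two-sided exact permutation p of 0.1, the smallest that 3 against 3 libraries allow, and an adjusted p of 0.6. RSEM divided the reads of similar transcripts unevenly between replicates: ETV4 NM_001079675.2 held 52.6%, 61.0% and 0% in AURKA-guide replicates 1, 2 and 3, against 29.96%, 0% and 22.9% in control replicates 1, 2 and 3.

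**Figure D5:**
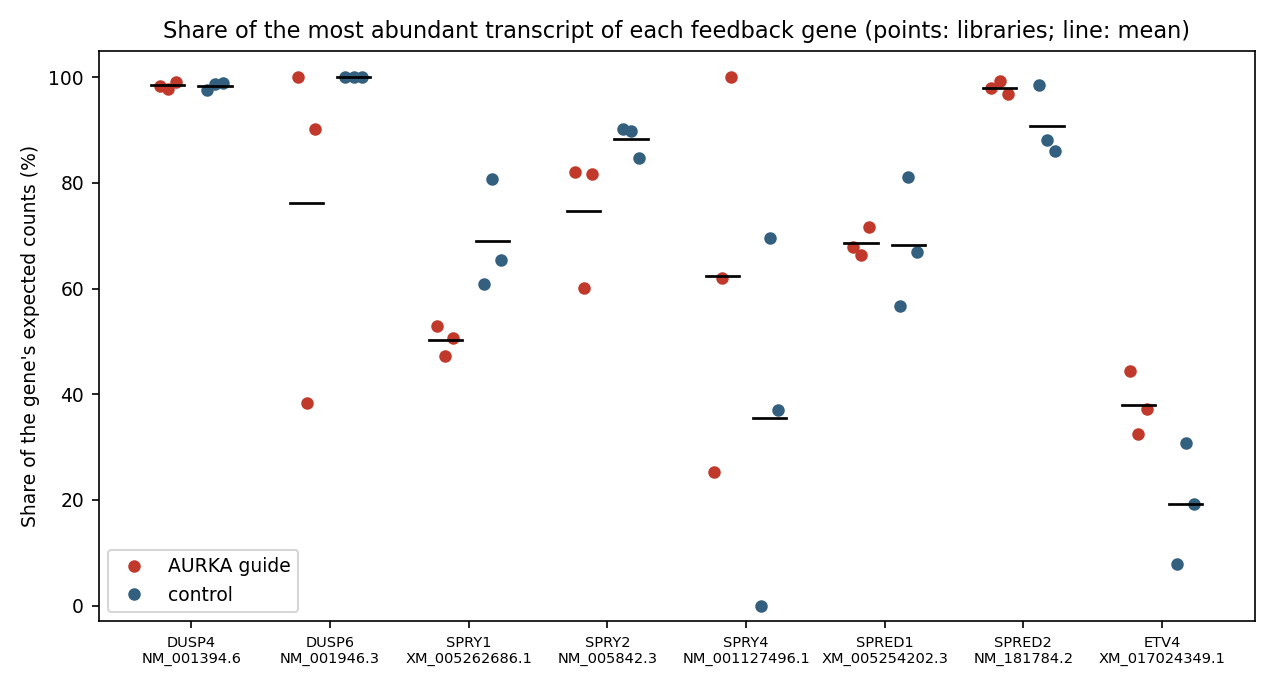
Share of each gene's expected counts (%) held by its most abundant transcript, for the 8 feedback genes with more than 1 listed transcript; points are libraries and lines are means. SPRY1, SPRY2 and ETV4 have separate groups. DUSP6 and SPRY4 are the genes with the fewest counts. The shares of SPRY4 scatter widely in both groups, and those of DUSP6 in AURKA-guide libraries, with 100% in every control library.

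The authors' deposited table of gene comparisons lists 229 genes, with q-values up to 0.0495, where the deposited gene table holds 17579. Of the 10 feedback genes 0 are among them, ETV5 included, and so short a list would hold few of any 10 genes. It lists FGFR3 at a log2 fold change of -0.24 (q = 0.00876) and EGR1 at 1.95 (q = 3.99e-06). The authors' deposited table of transcript comparisons gives an AURKA-guide value for 32 transcripts of the feedback genes. Of these, 0 had a q-value below 0.05 and 1 had a DESeq2 p-value below 0.05. That deposited table also compares cells with a guide against NSD2 to the controls. Of 33 such values 0 had a q-value below 0.05 and 3 had a DESeq2 p-value below 0.05. The shares past these thresholds over all transcripts in that deposited table were not counted. The NSD2-guide libraries were not analysed here. For the ETV5 transcript the authors' deposited table gives 0.56 (p = 0.144) with the AURKA guide and -0.13 (p = 0.785) with the NSD2 guide. Both comparisons name the same controls in the file headers, so the values are only set side by side.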

How the data were processed

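RNA was measured in 3 AURKA-guide and 3 control libraries prepared by a BGISEQ-500 protocol, as the labels' protocols state. The programs BWA, Bowtie2 and RSEM and the build hg19 were named, per the submitters' processing notes; versions, roles and strandedness were not given in the sources used here. Files the authors deposited hold expected counts, FPKM and TPM per gene and per transcript, per the file headers; TPM was not used. The authors' deposited gene comparison holds log2 fold changes and q-values, and their transcript comparison also p-values, from DESeq2 per the file headers.

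Expected counts were rounded, and the test was that of edgeR 4.0.16 (R 4.3.3): filterByExpr, TMM scaling, the quasi-likelihood F test and Benjamini-Hochberg adjustment at 0.05 over all tested genes. SEs come from the F statistic, fold changes are AURKA guide over control, and CPM uses the TMM-scaled library size. Transcripts were fitted the same way, and transcript shares by an exact permutation test. All 17579 genes entered the filter, 76 symbols damaged by a spreadsheet were restored by gene ID, and 17316 IDs matched a RefSeq gene. The alternatives tried were a block for the replicate number, DESeq2 1.42.0, limma 3.58.1 on FPKM of at least 0.5 in 3 libraries, other scalings and filters, each library left out, and an offset for GC content (natural spline with 5 degrees of freedom; GENCODE release 29, 16858 genes). The scripts were tested on simulated data. Total expected counts were 17724174 to 18523594, and 1 CPM is about 18 reads; errors cover the spread between libraries, and, with no molecular identifiers, reads need not be separate molecules. The genes, lists and tests were chosen with earlier results of these data known. Named are all 10 genes, AURKA, FGFR3 and NSD2, in each list the genes past the threshold or otherwise the 2 of smallest p that averaged 5 CPM or more, the 3 genes most like ETV5, and transcripts with at least 10% of their gene's counts; others are marked as named after their values were seen. One gene that the rule names is not reported here.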

Additional observations from a re-analysis of the deposited data

How the results depend on the processing

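The 10 feedback genes had 150 values under 16 alternatives, and 138 kept their direction and their side of the threshold. The call was lost in 7, all of them ETV5, and gained in 1, SPRED1 without control replicate 3. The sign turned for ETV4 in 4, to 0.0794 with the GC offset, 0.0779 with the GC offset and replicate block, 0.0706 without AURKA-guide replicate 2 and 0.0698 without control replicate 1; over the libraries left out it ran from -0.0872 to 0.0706. FGF9 also turned, to -0.053 with the GC offset, -0.0503 with the GC offset and block, -0.1394 without AURKA-guide replicate 3 and -0.0801 without control replicate 2, and ran from -0.1394 to 0.1049. CIC turned to 0.0147 and FGFR4 to 0.0232 with the GC offset, and to 0.0133 and 0.0232 with the GC offset and block. MYC turned to 0.0038 without control replicate 2, in a range of -0.0863 to 0.0038. The number of feedback genes called, 1, became 0 with the DESeq2 Wald test, 0 with limma on log2(FPKM + 1), 0 with limma on log2(FPKM + 0.1), and 0 with a mean of at least 10 CPM, which removes ETV5 and 5 others; it ran from 0 to 2 when 1 library was left out. Over all genes, 267 calls became 835 with the GC offset, 932 with the GC offset and block, and 98 to 2034 when 1 library was left out. In the other pathway lists 2 calls became 1 with DESeq2 size factors, 1 with limma at either pseudocount, 0 with a mean of at least 10 CPM, 7 with the GC offset, 7 with the GC offset and block, and 1 to 17 when 1 library was left out. The 1 transcript called became 0 with the replicate block, 726 with DESeq2 and 0 without any 1 library. The cause was not tested, except that fewer genes or libraries enter some fits. Deviations of libraries with the same replicate number had correlations of 0.051, -0.105 and 0.095. No pairing by number was seen, though 3 libraries per group cannot exclude it. With the replicate block 385 genes and 1 feedback gene were called. Limma on FPKM lacked DUSP6 and SPRY4. Counts limit DUSP5, DUSP6, SPRY2 and SPRY4, whose SEs are 0.180 to 0.389 on the log2 scale, against 0.0631 for DUSP4.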
